A study of Mus musculus with 2 samples.

Results

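The genes described here are 10 chaperones, folding enzymes and regulators of the endoplasmic reticulum (ER): Hspa5, Hsp90b1, Calr, Canx, Pdia3, Pdia4, Pdia6, Dnajb9, Xbp1 and Herpud1. They were found by symbol in the platform's annotation of the probes, where each has 1 probe, and they are 10 of 19321 genes with a symbol on the array. All 10 were above background on both arrays and all 10 lay among the 9249 genes at or above the median intensity.

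The series holds 1 array of gastrocnemius, a calf muscle, from a Wild type:R26-DTA mouse, called control, and 1 from a Pdgfra-CreER:R26-DTA mouse, called depleted. Both mice were female and 10 weeks old and both carried R26-DTA, a diphtheria toxin A gene at the Rosa26 locus. In the depleted genotype the Pdgfra promoter drives a tamoxifen-dependent Cre in mesenchymal progenitors and in any other cell that uses it. Both received tamoxifen from 9 weeks of age on 5 days and were killed 2 days after the last dose. The control label names no Pdgfra-CreER, so the recombinase itself and the loss of cells cannot be told apart, and neither can array, animal and group. The comparison addresses how muscle gene expression changes when these progenitors are removed. With 1 array per group there is no spread between animals and no test, and each difference below is a description of these arrays. In RNA from whole muscle, fewer cells of a type and less RNA per cell cannot be told apart.

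Proteins that enter the ER are folded by HSP70 and HSP90 type chaperones, by lectin chaperones that read sugar chains, and by protein disulfide isomerases that form disulfide bonds. When unfolded protein builds up, the sensors IRE1, ATF6 and PERK start the unfolded protein response, in which the factors XBP1 and ATF6 raise transcription of chaperone and degradation genes and PERK slows translation and raises ATF4. In muscle this system serves the sarcoplasmic reticulum of the fibres, and in fibroblasts the folding of collagen and other matrix proteins. Many of its genes carry the ER stress element (ERSE), to which the factor NF-Y binds at one end and ATF6 or XBP1 at the other.

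ERSE matches are shown first as a description of the promoters. The genes were chosen for their part in ER folding and the unfolded protein response, where ERSE is a known element. Its share among them is therefore not an independent result. RefSeq promoter windows of the build GRCm38.p6 were matched for all 10 genes, and the 250 bases before each annotated transcript start were searched on both strands. ERSE, written as CCAAT and CCACG with 9 bases of any kind between them, was found for 5 of the 10 genes and in 37 of all 32851 promoter windows, or 0.113%. The related ERSE-II, ATTGG and CCACG with 1 base between them, was found for Herpud1 and in 0.0304% of all windows. The matches are printed 5′ to 3′ on the strand of the gene with 5 flanking bases, and capitals mark the element, which reads in the opposite direction for Calr and for the match of Hsp90b1 nearer the start.
Hspa5, chr2:34772020-34772048, plus strand: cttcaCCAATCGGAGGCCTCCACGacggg
Hsp90b1, chr10:86705528-86705661, minus strand: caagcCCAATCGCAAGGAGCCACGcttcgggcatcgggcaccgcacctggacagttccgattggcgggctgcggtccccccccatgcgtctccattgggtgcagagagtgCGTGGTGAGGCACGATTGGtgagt
Calr, chr8:84847070-84847098, minus strand: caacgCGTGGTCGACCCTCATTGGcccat
Canx, chr11:50325795-50325823, minus strand: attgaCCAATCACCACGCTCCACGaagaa
Pdia6, chr12:17266486-17266514, plus strand: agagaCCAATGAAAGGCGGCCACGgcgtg
Herpud1, chr8:94386372-94386392, plus strand: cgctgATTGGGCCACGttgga

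The Hspa5 element spans bases -65 to -47 from the transcript start, and that of Pdia6 bases -98 to -80. The Canx element spans -145 to -127 and the Calr element -162 to -144, while Hsp90b1 has one match at -212 to -194 and another at -107 to -89. The ERSE-II of Herpud1 lies at -52 to -42. The letters CCAAT alone, which are part of both elements, were found for 9 of the 10 genes and in 33.8% of all windows, and CCACG alone for 7 of the 10 and in 28.3%. TGACGTG, the core of the unfolded protein response element, was found for Hspa5 and in 1.65% of windows, and TGATGNAAN, the element bound by ATF4 with C/EBP factors, for Herpud1 and in 3.44%. The windows of Xbp1, Pdia3, Pdia4 and Dnajb9 held no match to either ERSE form as spelled here, which says only that these letters are not in these windows.

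**Figure D1:**
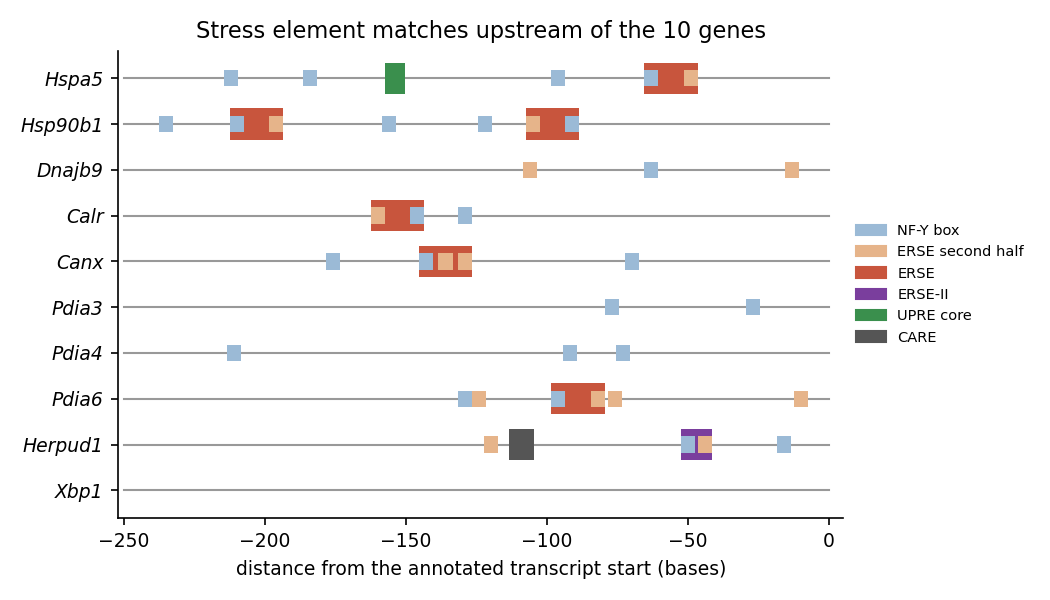
Matches to stress response elements in the 250 bases upstream of each gene, by distance from the annotated transcript start in bases. Red boxes are ERSE matches, purple is ERSE-II, green the unfolded protein response element core and dark grey the ATF4 element (CARE); pale blue and orange boxes mark each end of the element alone. The 5 genes with an ERSE are Hspa5, Hsp90b1, Calr, Canx and Pdia6.

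Levels are given on 3 scales. The spot median is the scanner's linear intensity, the deposited value is the authors' processed intensity, and the log2 ratio, depleted over control, comes from spot medians corrected for background and quantile-normalised. The spot medians of all 10 genes were higher on the depleted array, which was the brighter array as a whole, with a median probe of 59.8 there and 53.3 in control. After normalisation 8 of the 10 had a higher and 2 a lower value in depleted muscle, and the same numbers held for the deposited values. The ratios ran from -0.24 for Herpud1 to 0.57 for Canx with a median of 0.11, against a median of -0.00356 over the 18498 genes compared, of which 47.4% were higher. Of the 10 genes, 0 reached a 2-fold difference in either direction, and 0 reached 1.5-fold. Over all genes compared, 0.919% reached 2-fold (91 higher and 79 lower) and 3.49% reached 1.5-fold. Among the genes at or above the median intensity, which hold all 10, these shares were 1.84% and 6.97%, and the middle 95% of ratios ran from -0.65 to 0.73. All 10 ratios lay inside that range, and 5 of them between its quartiles of -0.16 and 0.15. Canx, Xbp1 and Dnajb9 stood at the upper end, and the ratios of the other 7 were at most 0.25.

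**Figure D2:**
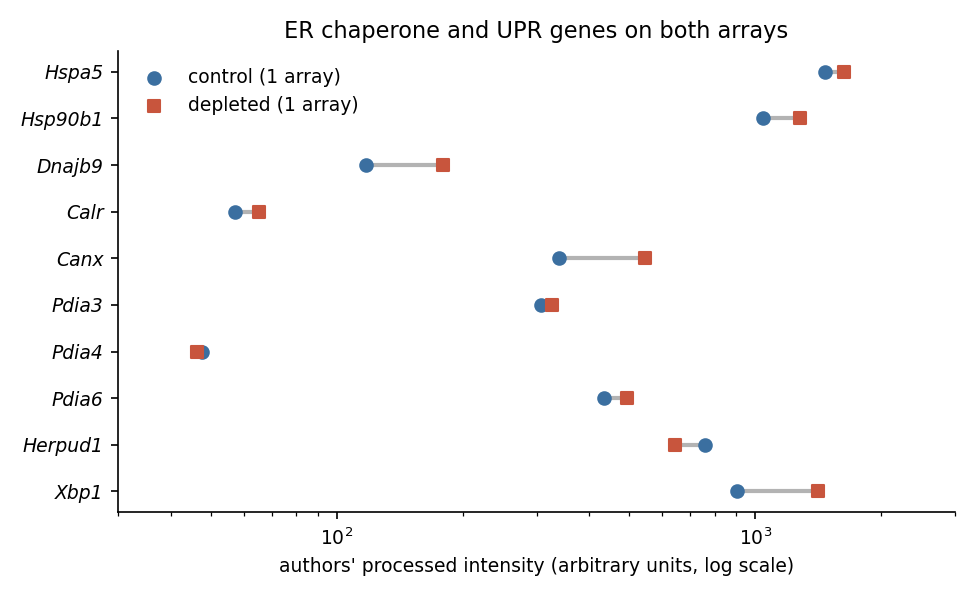
Processed intensity, as the authors deposited it, of each gene on the control array (circles) and the depleted array (squares), on a log axis; each point is 1 array. Canx, Xbp1 and Dnajb9 show the widest gaps, and Pdia4 and Herpud1 have the lower value on the depleted array.

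Hspa5 encodes BiP, the HSP70 chaperone of the ER, which binds unfolded chains and keeps the stress sensors inactive. Its spot median was 1193 for control and 1775 for depleted muscle, and its deposited values were 1472.2 and 1630.9. The arrays differed little after normalisation, at a log2 ratio of 0.08, which was higher than 65.0% of the genes at or above the median intensity. Hsp90b1 encodes GRP94, the HSP90 chaperone of the ER, which folds integrins and Toll-like receptors among other clients. Its spot medians were 855 and 1398 and its deposited values 1041.8 and 1277.6, in control and depleted muscle in turn. The ratio of 0.25 was the fourth in order among the 10 genes and higher than 83.8% of genes at or above the median intensity.

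Dnajb9 encodes ERdj4, a J-domain partner of BiP that takes part in degradation and in the control of IRE1. Its spot median was 128 in control and 228 in depleted muscle, and its deposited values were 117.1 and 179.4, a 1.53-fold difference. The depleted array was the higher, with a log2 ratio of 0.43 after normalisation. This is 1.35-fold and higher than 92.9% of genes at or above the median intensity. The offset of 50 that the background correction adds draws ratios of such dim genes toward 0, and with an offset of 16 the ratio of Dnajb9 was 0.53.

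The lectin chaperones Calr (calreticulin) and Canx (calnexin) bind newly made glycoproteins through the same sugar signal, the first as a soluble and the second as a membrane protein. Canx had spot medians of 304 in control and 619 in depleted muscle and deposited values of 340.2 and 546.1. The deposited values differed 1.61-fold, and the log2 ratio of 0.57, or 1.48-fold, was the highest of the 10 genes. It was higher than 95.8% of genes at or above the median intensity. Calr had spot medians of 81.0 and 106 and deposited values of 57.0 and 65.0. It lay close to background, at 2.17 times the limit of detection in control and 2.76 times in depleted muscle, and its ratio was 0.09. Although they share a role, the lectin chaperones thus differed in ratio, a difference that could not be tested.

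The 3 disulfide isomerases lay near 0. Pdia3, or ERp57, which works with the lectin chaperones on glycoproteins, had spot medians of 278 in control and 385 in depleted muscle, deposited values of 307.7 and 326.7, and a log2 ratio of 0.06. Pdia6, which also acts on the sensors IRE1 and PERK, had spot medians of 377 and 562, deposited values of 433.9 and 493.1 and a ratio of 0.13. Pdia4, or ERp72, was the dimmest of the 10 probes, with spot medians of 73.6 and 86.4 and deposited values of 47.5 and 46.4. Its ratio was -0.02, and it turned to 0.07 when the arrays were scaled to their medians.

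Herpud1, a membrane protein that helps to assemble the degradation complex around the ligase HRD1, had the lowest ratio. Its spot median was 632 in control and 723 in depleted muscle, and its deposited values were 758.2 and 644.2. The log2 ratio was -0.24, or 1.18-fold lower in depleted muscle, and 16.2% of genes at or above the median intensity were lower still. Scaling to the median turned it to 0.06. Xbp1 encodes the transcription factor that becomes active when IRE1 cuts an intron from its mRNA. Its spot median was 747 in control and 1541 in depleted muscle and its deposited values were 905.1 and 1412.0. The ratio of 0.56, or 1.48-fold, was the second highest and higher than 95.7% of genes at or above the median intensity. The sources used here do not say whether the probe tells the cut from the uncut mRNA, so only a total is given. Herpud1 and Xbp1, both known targets of the response, thus lay on opposite sides of 0 in these ratios and in the deposited values. Under scaling to the median both were above 0, with Xbp1 at 0.90. With the scanner's local background subtracted, described below, both were below 0.

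**Figure D3:**
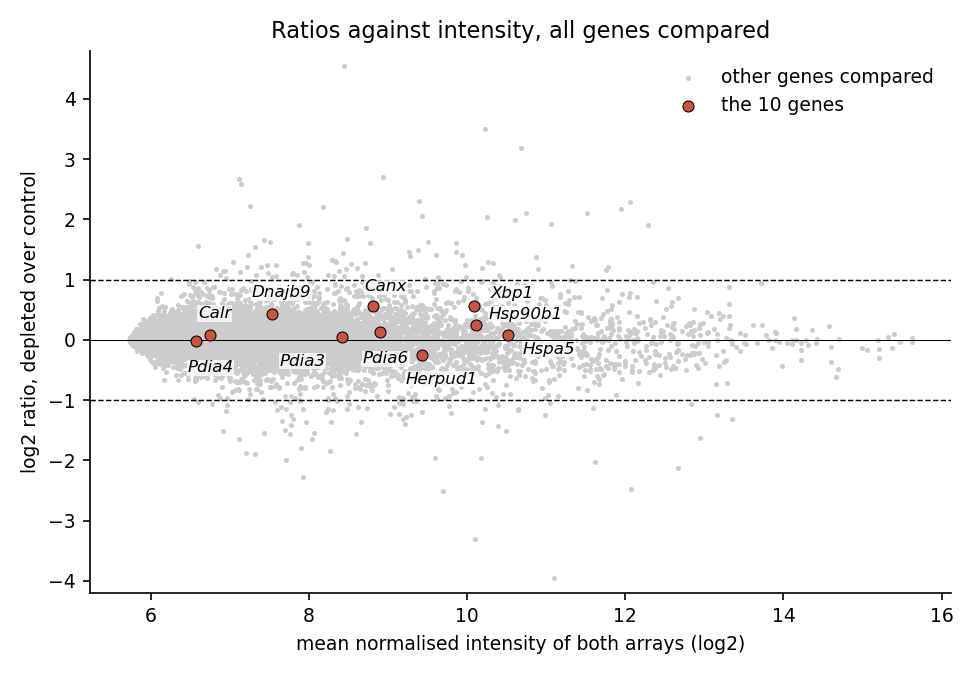
Log2 ratio, depleted over control, against the mean normalised intensity of both arrays in log2, for the 18498 genes compared (grey) and the 10 genes (red). Dashed lines mark a 2-fold difference. All 10 points lie between the lines, with Canx, Xbp1 and Dnajb9 above the others.

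In the deposited values, which have no added offset, 3 of the 10 genes reached 1.5-fold, all higher in depleted muscle, and 0 reached 2-fold. Of 17920 genes with both deposited values, 9.21% were higher by 1.5-fold or more, 7.21% were lower by as much, and 4.83% reached 2-fold in either direction. The 3 genes were Canx, Xbp1 and Dnajb9, and the median of the 10 was 0.19 against -0.01 over those genes. Scaling to the median, which does not adjust for intensity, gave all 10 genes a positive ratio with a median of 0.44. It also moved the median of the genes at or above the median intensity from -0.01 to 0.15 and left 74.2% of them higher, in place of 48.2%, and turned the 2-fold counts over all genes to 216 higher and 38 lower.

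The scanner's local background column gave another picture of single genes. On the depleted array the local background of Xbp1 was 1218 beside a spot of 1541, and that of Herpud1 was 738, above its spot of 723. For control muscle the same column stood at 266 for Xbp1 and 409 for Herpud1. For Hspa5 it was 534 in control and 362 in depleted muscle. Among 3549 probes with a spot above 200 on both arrays, the local background had a median of 54.3% of the spot in control and 67.4% in depleted muscle. At these medians the column lay well above the blank spots, which averaged 36.3 in control and 37.0 in depleted muscle. What the column measures was not settled, so its subtraction is given only as an alternative, here and below. With that column subtracted, Xbp1 turned to -0.52, Hspa5 and Pdia3 came to 1.06 and 1.03, and Herpud1, floored at 1 on the depleted array, had no measured ratio beyond being lower. The positive value of Xbp1 thus rests on leaving that column out, whereas Canx (0.89) and Dnajb9 (0.48) were higher either way. The median ratio of the 24 blocks of spots ran from -0.01 to 0.02, and an effect of position at single spots was not tested.

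**Figure D4:**
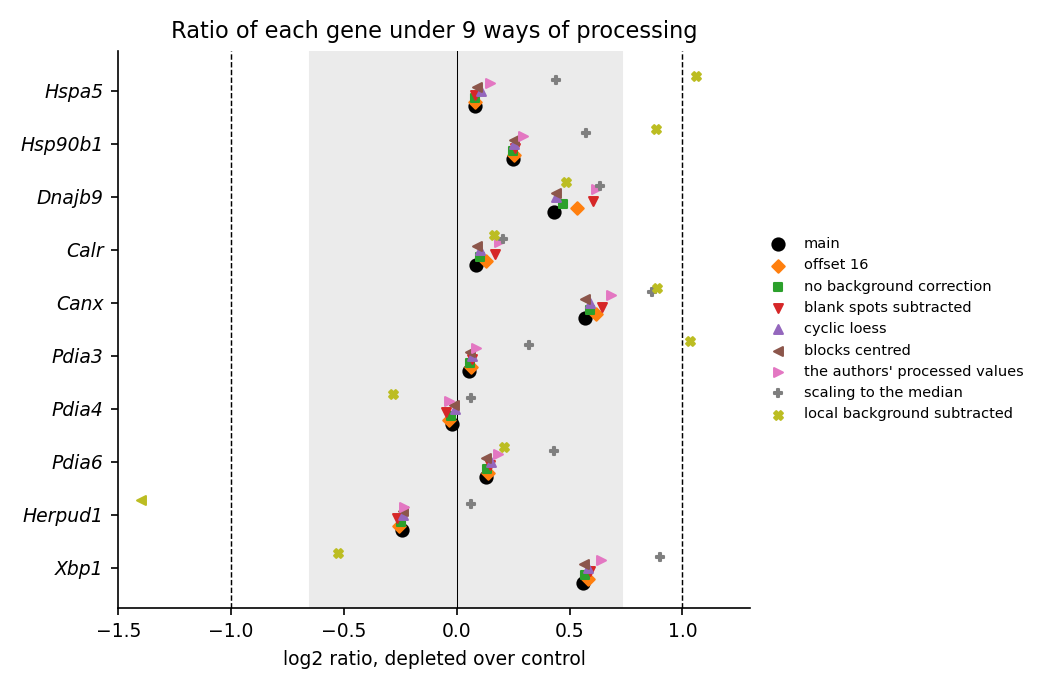
Log2 ratio of each gene under 9 ways of processing the same arrays. Each marker is 1 way, the grey band is the middle 95% of genes at or above the median intensity in the main setting (-0.65 to 0.73), and dashed lines mark 2-fold; the arrowhead at the left edge for Herpud1 stands for a value beyond the axis.

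Genes with and without an ERSE form were not separated by their ratios. The 6 with ERSE or ERSE-II ran from -0.24 to 0.57 with a median of 0.11, and the 4 without from -0.02 to 0.56 with a median of 0.24, so their ranges overlap. Of all 45 genes whose window holds either form, 29 were measured. The 23 of these that are not among the 10 had a median of 0.01 and ran from -0.14 to 0.33. Of the 23, 0 reached 2-fold, where 0.919% of all genes compared did. Several of them lay close to the limit of detection, and the offset of 50 draws ratios of dim genes toward 0. The highest of the 23 was Hnrnpa3, an RNA-binding protein, at 0.33, and Syvn1, the ligase HRD1, was at 0.19. Both were named after their values were seen.

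Other ER folding enzymes and co-chaperones were as close to 0 as the 10 genes. Of 26 measured, 18 were higher and 8 lower, 0 by 2-fold or by 1.5-fold, with a median of 0.04. Erp44, which holds folding enzymes in the ER, was at 0.56, and its deposited value was 150.5 in control and 249.2 in depleted muscle. P4hb, the disulfide isomerase that is also a subunit of collagen prolyl hydroxylase, was at 0.44 (1276.8 and 1834.8), and the secreted stress factor Manf at 0.40 (266.4 and 374.3). Txndc5, a disulfide isomerase known from fibroblasts, was the lowest of the list at -0.54, from 239.7 in control to 149.3 in depleted muscle.

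The sensors of the response were dim and near 0. Of 13 sensors and transcription factors, 7 were higher and 6 lower, 0 by 2-fold, with a median of 0.06. Eif2ak3, which encodes PERK, was at 0.20, while Nfyb, a subunit of NF-Y, was at -0.14 and Wfs1 at -0.16. Atf4 was the only member of this list at 1.5-fold or more, at 0.60, with deposited values of 1601.5 and 2587.6.

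Genes of ER-associated degradation, which return misfolded proteins to the cytosol, lay above 0 in 20 of 21 cases, where 47.4% of all genes did, and their median was 0.15. The exception was Vcp, the ATPase that pulls substrates from the membrane, at -0.07. At 1.5-fold or more were 3 members, all higher, where 1.96% of all genes were. Herpud2, the paralog of Herpud1, was at 0.85, from a deposited 292.4 in control to 582.0 in depleted muscle. Edem1, which selects glycoproteins for degradation, was at 0.71 (34.4 and 92.4) and in deposited values 2.69-fold higher. Ubxn4, which brings Vcp to the membrane, was at 0.67 (790.5 and 1325.3), and Selenos at 0.49. The number higher was also 20 of 21 in the authors' deposited values. Scaling to the median gave 20 of 21 too, without a check that they are the same genes, beside 74.2% of genes at or above the median intensity. Subtraction of the local background left 14 of 21 higher, beside 50.4% of genes at or above the median intensity. The 14 include Edem3, floored at 1 on the control array, and Ufd1, floored on both, which had no measured ratio.

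Of 21 translocation and signal peptide processing genes 14 were higher and 7 lower, 0 by 2-fold, with a median of 0.06. Sec63, which recruits BiP to the translocation channel, was at 0.80 with deposited values of 244.4 and 474.7. Its local background of 607 on the depleted array exceeded its spot of 543, so that subtraction left no measured ratio. The signal peptidase subunits Spcs2 and Spcs3 were at 0.54 and 0.45, and Srpr, the receptor of the signal recognition particle, at -0.47.

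The PERK-ATF4 arm, which other stresses such as amino acid shortage also switch on, held the only 2-fold differences among these lists. Of 11 members 9 were higher, 4 of them by 2-fold or more and 0 lower by 2-fold, where 0.492% of all genes were higher by 2-fold. Ppp1r15a, which restores translation by directing the removal of phosphate from eIF2alpha, was 3.10-fold higher, and the authors' table lists it at 55.8 in control and 294.2 in depleted muscle. Chac1 was 4.32-fold, the mTORC1 inhibitor Ddit4 2.62-fold and the lipoprotein receptor Vldlr 2.36-fold higher. Vldlr came to -1.10 with the local background subtracted, a setting that left 6 of 11 higher and a median of 0.01. In that setting 4 were higher by 2-fold or more (Ppp1r15a, Chac1, Atf3 and Ddit4) and 2 lower by as much (Vldlr and Asns). Of all 18498 genes compared, 1940 were then higher and 2021 lower by 2-fold or more. Atf3, an early stress factor, was 1.69-fold higher at 0.76, and 2.90-fold in deposited values (33.0 and 95.6). The median of the list was 0.17, and 0.53 in deposited values. There 5 members were higher by 2-fold or more, beside 514 of the 17920 genes with both deposited values. Other members lay near 0 or lower, such as Trib3 (-0.03), Asns (0.01) and Sesn2 (-0.20). Ddit3, which encodes CHOP and stood with the sensors, was at -0.09. Whether this arm differed from the 10 genes was not tested.

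**Figure D5:**
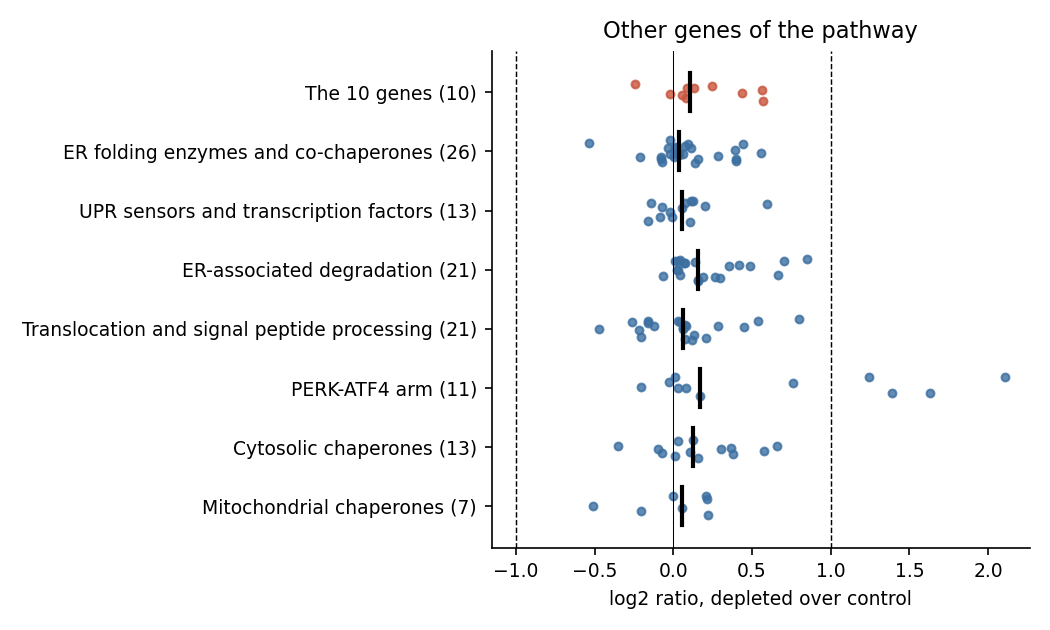
Log2 ratio, depleted over control, of each measured gene in the 10 genes (red) and in 7 lists of related genes (blue), with the number measured in brackets and the median as a black bar. Dashed lines mark a 2-fold difference, which 4 genes of the PERK-ATF4 arm pass.

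Chaperones outside the ER had medians near that of the 10 genes, while their single ratios ran from -0.51 to 0.66. Of 13 cytosolic chaperones 10 were higher, 0 by 2-fold, with a median of 0.13, led by the inducible Hspa1a at 0.66 and Hspa4 at 0.58, and followed by St13 at 0.38 and Cct2 at 0.36. Of 7 mitochondrial chaperones 4 were higher, with a median of 0.06, with Hspd1 at -0.51, Hspa9 at 0.22, Clpp at 0.21 and Hspe1 at 0.21. Scaling to the median raised the number of higher genes to 21 of 26 folding enzymes, 11 of 13 sensors and factors, 20 of 21 translocation genes, 12 of 13 cytosolic and 6 of 7 mitochondrial chaperones. It also left 74.2% of all genes at or above the median intensity higher, so these counts say little about the lists. With the local background subtracted, Manf (-0.69), Ubxn4 (-0.51), St13 (-0.20) and Hspa9 (-0.05) turned negative and Vcp (0.48) positive, Cct2 was floored at 1 on the depleted array like Herpud1, and the medians of the folding enzymes (-0.11), of the sensors and factors (-0.12) and of the cytosolic (-0.20) and mitochondrial (-0.05) chaperones turned negative too.

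Markers of other cells differed between the arrays as well. All 8 myofibre markers were above background on both arrays, and 1 was higher, 6 were lower and Ckm was at 0. Their deposited values summed to 358060 in control and 252812 in depleted muscle, and their spot medians to 281663 and 269663. Against the spots, deposited values have a slope of 1.27 on the control and 0.939 on the depleted array, which enters every deposited sum here. Their median log2 ratio was -0.05, and -0.47 in deposited values, and Pvalb, a calcium buffer of fast fibres, was 2.38-fold lower. The local background of Pvalb in control was 13288, above its spot of 12931, so that subtraction left no measured ratio. Mesenchymal progenitor markers were lower in 11 of 11, with summed deposited values of 11453 and 6054, and 6 of them by 2-fold or more. Of all genes compared, 0.919% reached 2-fold in either direction, and 47.4% were higher. Macrophage markers were higher in 10 of 10, from 3405 to 7571, and endothelial markers in 6 of 6, from 425.3 to 634.7. Tenocyte markers were lower in 6 of 6 and erythroid markers in 4 of 4. With the local background subtracted, most endothelial markers turned negative, such as Pecam1 (-1.32), while most macrophage markers stayed higher. The macrophage marker Lyz2 was floored at 1 on the depleted array. The tenocyte markers Chad (0.52) and Comp (1.44) turned positive, and the other tenocyte markers stayed negative. Plasma cell and B cell markers, whose cells are rich in ER, were near background, with spot medians that summed to 221 in control and 245 in depleted muscle over 5 genes, of which 4 were higher and 1 lower. Fibroblasts and macrophages also express the 10 genes, and the part of these cells in the values above was not tested.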

How the data were processed

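Per the labels' protocols, RNA of 1 control and 1 depleted gastrocnemius was amplified and labelled with Cy5. Per the file headers, the deposited scanner tables give median spot intensities at 635 nm, combined over 3 scan gains and not corrected for background. The authors also deposited processed intensity values, with a median of 25 on both arrays; set against the spots they are a straight line with a slope of 1.27 on the control and 0.939 on the depleted array, which settles their scale and direction. For scanner, software and genome build, nothing is stated in those sources.

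Spot medians were corrected with normexp (offset 50) in limma 3.58.1 under R 4.3.3, quantile-normalised over 23473 probes, and 1 probe, the brightest, stood for each gene. Background was the mean of 2736 blank spots plus 2 SD, 37.4 on the control and 38.5 on the depleted array, and 18498 genes above it on at least 1 array were compared. On an array below this limit a value was raised to the lowest one above it. The normalisation was tested on simulated data. Symbols came from the platform annotation, with 20556 probes matched to RefSeq by Entrez gene and 0 symbols changed. Promoters and their coordinates are RefSeq's (GRCm38.p6), read with Python 3.11.15. A gene without a probe of its symbol was not analysed here. The genes, lists, thresholds and alternatives were chosen with earlier results of these data known. Of each list the text names the 4 genes with the largest ratios either way and those past 2-fold. Vcp, Ddit3, Atf3, Trib3, Asns, Sesn2, Hnrnpa3 and Syvn1 were named after their values were seen. Precision is limited throughout by having 1 array per group.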

Additional observations from a re-analysis of the deposited data

How the results depend on the processing

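No paired analysis was possible because there was a single array in every group. The 12 alternatives gave 120 values for the 10 genes. Of these 115 moved by less than 1.5-fold and stayed below 2-fold. The 115 include values that could not move, since each of the 10 genes has a single probe and passed every intensity filter. Averaging a gene's probes, dropping the filter on dim genes and making it stricter therefore returned the main ratios, and say nothing about robustness. The other 5 values all came from subtraction of the local background, which put 3 of the 10 genes past 2-fold, beside 3961 of all 18498 genes compared. Hspa5 (1.06) and Pdia3 (1.03) were higher, and Herpud1 was lower, where the spot did not exceed its local background. Centring of the blocks was added after seeing the data. The 170 genes past 2-fold became 645 at 1.5-fold and 44 at 3-fold by construction, 280 with an offset of 16, 863 with the blank spots subtracted, 866 in the authors' processed values and 3961 with the local background subtracted. With genes below the median intensity left out, the PERK-ATF4 arm had a median of 0.999, since dim members such as Trib3 (-0.03) and Asns (0.01) were then not counted. Dim probes limit what can be seen of Calr, Pdia4 and the sensors.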
